A study of Mus musculus with 4 samples.

Results

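The 9 genes described here belong to the early response of cells to stimulation and are 9 of the 37140 genes that all 4 count tables list. They were measured in Gfi1b WT and Gfi1b KO hematopoietic stem cells (HSCs) of the mouse. The set is Ier2, Ier3 and Ier5 of the immediate early response group, Btg1 and Btg2 of the Btg/Tob family, Zfp36, Zfp36l1 and Zfp36l2 of the Zfp36 family, and Trib1. The rows were matched by Ensembl identifier, and every one of the 9 had at least 10 counts in each library, so no gene was lost to the filter on low counts. The set was chosen by gene family and by its KO/WT ratios in these same libraries. Their KO/WT ratios are therefore a description, and the comparisons between populations use the same libraries again, so that no comparison here is independent of the choice.

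Early-response genes are transcribed within minutes of a signal such as a growth factor, a cytokine or stress, from loci that need no new protein to be switched on. Their messages are usually short-lived. Btg1 and Btg2 are antiproliferative adaptors that hold the Cnot7 and Cnot8 deadenylases of the CCR4-NOT complex, and Zfp36 (tristetraprolin) and its relatives bind AU-rich elements in 3′ untranslated regions (3′ UTRs) and bring the same complex to the message, which is then degraded. Trib1 is a pseudokinase that presents C/EBPα to the ubiquitin ligase COP1. In blood formation, Zfp36l2 is required for the upkeep of stem and progenitor cells in the mouse, and Btg genes restrain proliferation of precursors.

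The cells came from tibiae, femora and humeri of C57Bl6 mice. The first population was sorted as Lin- cKit+ Sca1+ Cd48- CD150+ cells, with no CD41 or CD9 gate listed in the RNA-seq methods, and is called HSCs here. Elsewhere the study names its RNA-seq population CD41+/CD9+ HSCs and defines HSCs as either high or low in both proteins, so that the first population may hold cells gated as CD41 and CD9 positive. The other was sorted as HSCs with low CD41 and low CD9 (CD41low/CD9low HSCs). According to the methods, KO mice were Rosa-Cre Gfi1b fl/fl and the controls labelled WT were Rosa-Cre Gfi1b wt/fl. All were given tamoxifen, so that the controls carry Cre and a floxed allele too, whereas the deposited design text describes floxed mice with or without ROSA-Cre. The Rosa26 promoter drives Cre broadly, not only in stem cells. Marrow of several mice per genotype was pooled, from more WT than KO mice, and each combination of genotype and population gave 1 library. No age is stated. With 1 library per group no spread between animals can be measured, no test between groups is possible, and intervals below cover counting error only.

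Total counts on genes ran from 12732079 to 50781007 per library, and both CD41low/CD9low libraries were shallower than both HSC libraries. Reads outside annotated features came to 80.0 per 100 gene counts in WT HSCs and 105.3 in KO HSCs, but to 62.0 and 60.1 in the other pair. The targeted gene Gfi1b was measured at 182 CPM (counts relative to the library's total on genes) in WT HSCs against 1197 CPM in the KO, and in CD41low/CD9low HSCs at 48.0 CPM in the WT against 509 CPM in the KO. A count per gene does not separate deleted from remaining exons, so the Gfi1b count does not check the labels. The sample titles name Gfi1, while the genotype field and the methods name Gfi1b, which is followed here, and WT and KO below name the libraries labelled so. The 10 HSC markers summed to between 2052 and 2662 CPM in the 4 libraries, all 10 with counts. Kit alone gave 989 to 1262 CPM of these sums, and single markers differed more. In WT HSCs, KO HSCs, WT CD41low/CD9low HSCs and KO CD41low/CD9low HSCs, Procr was at 45.7, 99.0, 165 and 251 CPM. Slamf1 (CD150) was at 82.7, 106, 30.9 and 61.1 CPM in the same order. Between WT populations 1 of 10 was below 0.6 and 3 were above 1.5 (all genes 19.7% and 19.2%). The 12 megakaryocyte markers summed to 1725 CPM in WT HSCs, 2471 CPM in KO HSCs, and 545 and 661 CPM in the CD41low/CD9low pair, where 2 of 12 were at 0 in each library (Gp1bb and Gp6 in the WT, Gp6 and Mpig6b in the KO). The 10 neutrophil and myeloid progenitor markers summed to 454 and 542 CPM in WT and KO HSCs. Their sums were 1137 CPM in the WT CD41low/CD9low library and 286 CPM in its KO partner. From WT HSCs to WT CD41low/CD9low HSCs, S100a9 went from 40.6 to 363 CPM but Mpo from 174 to 121 CPM. Of these 10 markers, 6 were above 1.5 between the WT populations (all genes 19.2%) and 2 were below 1. The 10 erythroid markers summed to 142 CPM in WT and 19.0 CPM in KO CD41low/CD9low HSCs, where Car1 and Ermap were among those at 0. Of 9 kept there, 8 had a KO/WT ratio below 0.6 and 1 above 1.5 (all genes 12.0% and 13.5%). The 1 above was Epor, at 3.85 and 10.7 CPM. In WT and KO HSCs the erythroid sums were 72.2 and 59.7 CPM, with 3 of 10 below 0.6 and 4 above 1.5 (all genes 10.3% and 14.1%). Car1 went from 19.8 to 8.32 CPM there and Hbb-bs from 2.09 to 15.8 CPM. The sums of 8 macrophage markers lay between 19.7 and 41.6 CPM, those of 10 lymphoid markers between 33.3 and 42.0 CPM (with Cd3e and Cd8a at 0 in 3 of the 4 libraries), and those of 8 cell cycle markers at 2333, 1843, 1635 and 1200 CPM in WT HSCs, KO HSCs, WT CD41low/CD9low HSCs and KO CD41low/CD9low HSCs. In bulk RNA, fewer cells of a type and less RNA per cell cannot be told apart. The part of these differences in the values below was not tested.

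Of the 9 genes, 5 carry the heptamer TATTTAT in the annotated 3′ UTR, the core of the element that Zfp36 proteins bind. Ier3 holds 4 copies, Zfp36, Zfp36l1 and Zfp36l2 hold 3 each and Btg2 holds 1, whereas Ier2, Ier5, Btg1 and Trib1 hold none. Of 13373 coding genes kept in HSCs with a 3′ UTR, 29.7% carried the heptamer and 4.01% carried it at least 3 times. The copy nearest to the stop codon is shown for each of the 5 genes, 5′ to 3′ as DNA of the sense strand, with every whole heptamer in capitals (the stretch of Ier3 holds the next copy as well), because it is the feature that links the Zfp36 genes as readers of the element to genes that carry it. The genomic positions (GRCm38) are chr7:28376966-28376994 on the minus strand for Zfp36, chr12:80108422-80108450 on the minus strand for Zfp36l1, chr17:84184914-84184942 on the minus strand for Zfp36l2, chr17:35822481-35822509 on the plus strand for Ier3 and chr1:134077249-134077277 on the minus strand for Btg2.
Zfp36: agtgggcccttTATTTATgacgactttat
Zfp36l1: ttatcaaaacgTATTTATtgccaaactat
Zfp36l2: actatttaactTATTTATtatcttgtgaa
Ier3: tgtctaattaaTATTTATgTATTTATgta
Btg2: aaatgaagagcTATTTATacatgtttttt

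Promoters of 6 of the 9 genes were matched (Ier3, Ier5, Btg1, Btg2, Zfp36 and Zfp36l1, not Ier2, Zfp36l2 and Trib1), as 250 bases before to 50 bases after the RefSeq start on GRCm38.p6, and those of a pair from each of 2 families are printed because the members of a pair had different KO/WT ratios in HSCs. In each pair the gene whose ratio was below 0.6 (Zfp36, Btg2) stands before the relative whose ratio was above 1 (Zfp36l1, Btg1). The counting interval of Btg2 crosses 0.6, however, and that of Btg1 holds 1 (below). Capitals mark AATC, the core of the Gfi1 family's binding sequence, and TGACG, part of the cAMP response element (both searched on either strand), the full element TGACGTCA, which overlaps TGACG, the serum response factor site known as the CArG box, and TATAA on the sense strand. The regions are chr7:28379179-28379478 (minus strand) for Zfp36, chr12:80112964-80113263 (minus strand) for Zfp36l1, chr1:134079106-134079405 (minus strand) for Btg2 and chr10:96616751-96617050 (plus strand) for Btg1.
Zfp36: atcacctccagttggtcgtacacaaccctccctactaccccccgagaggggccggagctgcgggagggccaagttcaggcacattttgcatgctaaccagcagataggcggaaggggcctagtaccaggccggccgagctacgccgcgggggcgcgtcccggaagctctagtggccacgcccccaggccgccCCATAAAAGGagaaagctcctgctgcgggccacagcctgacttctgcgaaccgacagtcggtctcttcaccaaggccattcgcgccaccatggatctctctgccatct
Zfp36l1: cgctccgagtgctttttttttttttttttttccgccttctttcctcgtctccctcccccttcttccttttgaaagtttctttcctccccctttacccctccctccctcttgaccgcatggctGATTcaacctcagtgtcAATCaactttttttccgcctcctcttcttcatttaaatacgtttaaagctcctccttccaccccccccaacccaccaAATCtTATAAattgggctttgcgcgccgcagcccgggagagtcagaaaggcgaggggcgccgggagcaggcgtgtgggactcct
Btg2: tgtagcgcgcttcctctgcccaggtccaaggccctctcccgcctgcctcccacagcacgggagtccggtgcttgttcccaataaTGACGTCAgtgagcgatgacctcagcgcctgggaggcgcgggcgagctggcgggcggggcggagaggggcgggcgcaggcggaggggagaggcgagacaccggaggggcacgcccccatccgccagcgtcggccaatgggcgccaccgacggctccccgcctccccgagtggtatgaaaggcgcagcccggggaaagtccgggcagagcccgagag
Btg1: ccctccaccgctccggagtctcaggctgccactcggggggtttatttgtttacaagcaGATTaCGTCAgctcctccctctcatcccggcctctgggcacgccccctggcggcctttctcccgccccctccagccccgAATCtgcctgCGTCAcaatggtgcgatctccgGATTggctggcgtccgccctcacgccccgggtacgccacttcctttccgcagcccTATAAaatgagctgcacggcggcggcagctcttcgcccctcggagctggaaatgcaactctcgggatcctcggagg

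The Zfp36 promoter held a CArG box that begins 58 bases before the start and no match to the other motifs, and the Btg2 promoter held TGACGTCA from 166 bases before the start and no AATC. Zfp36l1 and Btg1 each held 3 matches to AATC and 1 to TATAA, and Btg1 also held 2 matches to TGACG. Ier3 and Ier5, not printed, held 2 and 4 matches to AATC and 1 each to TATAA. Among 32851 RefSeq promoters of the same length, 73.1% held AATC, 20.8% TGACG, 1.79% TGACGTCA, 1.63% a CArG box and 17.5% TATAA. AATC is thus a frequent word in such windows, while the CArG box and TGACGTCA are rare ones.

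In HSCs, 4 of the 9 genes had a KO/WT ratio below 0.6 (Zfp36, Ier2, Trib1 and Btg2) and 0 of 9 had a ratio above 1.5. Among all 15910 genes kept, 10.3% were below 0.6 and 14.1% above 1.5, and nothing is read from the count of members, which were chosen with these ratios known. A total of 7 of 9 were below 1, where all genes had 49.98%, with a median log2 ratio of -0.60 (all genes 6.6e-05). The level in each library is given below as a normalized count with size factors of all 4 libraries, and each KO/WT ratio uses the size factors of its own pair.

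**Figure D1:**
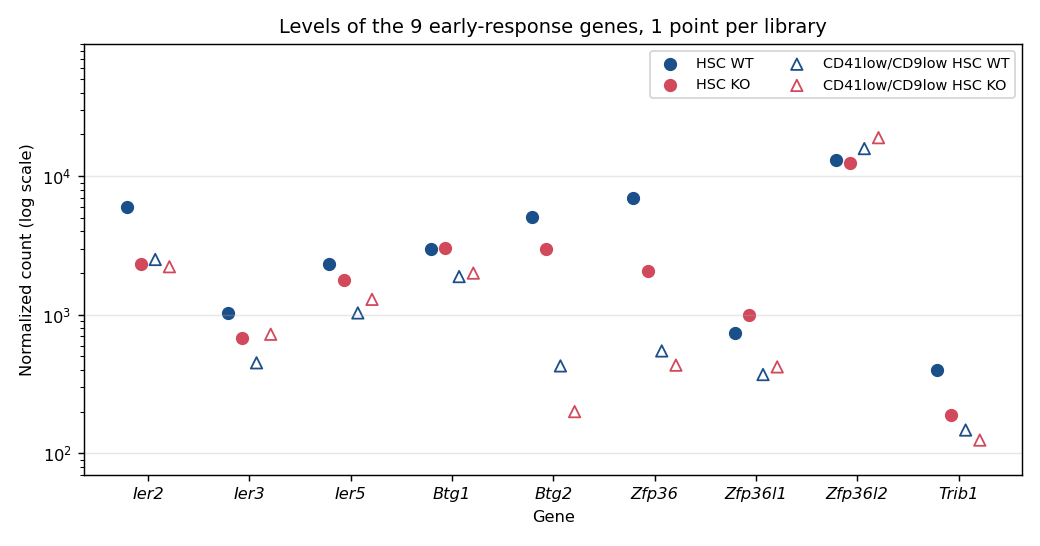
Normalized counts (log scale, size factors of all 4 libraries) of the 9 genes, 1 point per library, with filled circles for HSCs and open triangles for CD41low/CD9low HSCs, blue for WT and red for KO. The WT HSC library is the highest of the 4 for Ier2 (6002), Ier3, Ier5, Btg2, Zfp36 (6973) and Trib1, and the lowest point of Btg2 (200.0) is that of KO CD41low/CD9low HSCs.

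Among the Ier genes, Ier2 was the most abundant. Ier2, a nuclear protein linked to transcriptional control, lies on chr8:84661331-84662852 and has 1 exon. Its normalized count was 6002 in WT HSCs, 2314 in KO HSCs, 2506 in WT CD41low/CD9low HSCs and 2222 in KO CD41low/CD9low HSCs, so that the WT HSC library stood alone above 3 libraries at similar levels. The KO/WT ratio was 0.389 (95% counting interval 0.374 to 0.404) in HSCs against 0.883 (0.819 to 0.951) in CD41low/CD9low HSCs. Ier2 per length of exon was at rank 171 of 13163 coding genes in WT HSCs and at rank 558 of 12966 in KO HSCs.

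Ier3, a stress-inducible regulator of cell survival (chr17:35821684-35822923), had 1032 normalized counts in WT HSCs, 675 in KO HSCs, 450 in WT CD41low/CD9low HSCs and 723 in KO CD41low/CD9low HSCs. The order of genotypes was thus opposite in the populations. Its KO/WT ratio was 0.659 (0.611 to 0.712) in HSCs, the nearest to the cutoff of 0.6 from outside as Btg2 at 0.589 was from inside, and 1.60 (1.36 to 1.88) in CD41low/CD9low HSCs. Ier3 was the single gene of the 9 above 1.5 in the latter, against 13.5% of all 14844 genes kept there.

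Ier5, a single-exon gene at chr1:155096361-155099636 whose protein binds heat shock factor 1 and the phosphatase PP2A, had 2344, 1793, 1031 and 1292 normalized counts in WT HSCs, KO HSCs, WT CD41low/CD9low HSCs and KO CD41low/CD9low HSCs. Both HSC libraries were above both CD41low/CD9low libraries. The KO/WT ratio was 0.772 (0.735 to 0.810) in HSCs against 1.25 (1.12 to 1.39) in CD41low/CD9low HSCs, again on opposite sides of 1. The relatives by name, Ier5l and Ier3ip1 (a secretory pathway protein named for an interaction with Ier3), had KO/WT ratios in HSCs of 0.321 (0.160 to 0.5996, from 50 and 13 counts) and 0.960 (0.901 to 1.02). In CD41low/CD9low HSCs they were at 1.42 (0.579 to 3.79) and 1.04 (0.919 to 1.17), the first from 8 and 17 counts.

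The Btg genes differed from each other. Btg2, also known as Tis21 and a target of p53 (chr1:134075170-134079120), had 5075 normalized counts in WT HSCs, 2964 in KO HSCs, 428 in WT CD41low/CD9low HSCs and 200.0 in KO CD41low/CD9low HSCs. The values fell into 4 separate levels, with the larger step between populations and the smaller between genotypes. Its KO/WT ratio was 0.589 (0.569 to 0.611) in HSCs against 0.466 (0.374 to 0.578) in CD41low/CD9low HSCs, and it was the 1 gene of 9 below 0.6 in the latter, where 12.0% of all genes were. The HSC ratio lay at the cutoff: the counting interval crossed it, and a correction for exon length gave 0.643, which ends the call. Btg1 (chr10:96617006-96622809) had 2990, 3044, 1886 and 1999 normalized counts in WT HSCs, KO HSCs, WT CD41low/CD9low HSCs and KO CD41low/CD9low HSCs. Its KO/WT ratio was 1.03 (0.988 to 1.07) in HSCs against 1.05 (0.971 to 1.15) in CD41low/CD9low HSCs, both with an interval that holds 1.

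Of the other Btg/Tob genes, Btg3 had a KO/WT ratio of 0.649 (0.547 to 0.768) in HSCs, compared with 0.636 (0.503 to 0.804) in CD41low/CD9low HSCs. Tob1 was at 0.648 (0.578 to 0.727) and 1.22 (1.005 to 1.495), and Tob2 at 0.958 (0.911 to 1.01) and 1.25 (1.16 to 1.35) in the same order. None of these 3 antiproliferative relatives passed either cutoff in HSCs or in CD41low/CD9low HSCs. Btg4, known from oocytes, had 0 counts in every library, which at the shallowest allows up to 0.236 CPM.

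**Figure D2:**
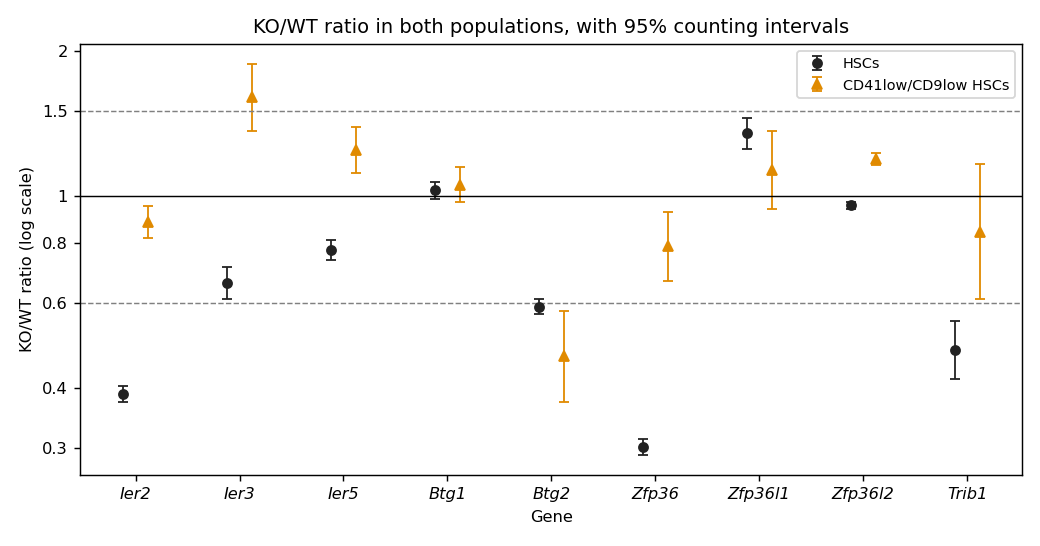
KO/WT ratio of each gene (log scale) in HSCs (circles) and CD41low/CD9low HSCs (triangles), with 95% counting intervals and dashed lines at the cutoffs of 0.6 and 1.5. Zfp36 (0.302) and Ier2 (0.389) are lowest in HSCs, Btg2 is below 0.6 in both populations, and Ier3, Ier5 and Zfp36l2 lie on opposite sides of 1.

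The Zfp36 family held the lowest ratio in HSCs, that of Zfp36, and the message with the highest normalized counts of the set, that of Zfp36l2. Per length of exon, Ier2 at 144.8 CPM per kilobase stood above Zfp36l2 at 137.0 in WT HSCs. Zfp36, encoding tristetraprolin (chr7:28376784-28380253), had 6973 normalized counts in WT HSCs, 2087 in KO HSCs, 548 in WT CD41low/CD9low HSCs and 433 in KO CD41low/CD9low HSCs. The KO/WT ratio was 0.302 (0.290 to 0.314) in HSCs, or 3.31-fold lower in the KO, and 0.786 (0.666 to 0.928) in CD41low/CD9low HSCs. Zfp36l1 (chr12:80107754-80113013) had 742, 991, 370 and 421 normalized counts in WT HSCs, KO HSCs, WT CD41low/CD9low HSCs and KO CD41low/CD9low HSCs, and was thus at its highest level in KO HSCs, unlike Zfp36 and Zfp36l2. Its KO/WT ratio was 1.35 (1.25 to 1.45) in HSCs against 1.13 (0.938 to 1.37) in CD41low/CD9low HSCs.

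Zfp36l2 (chr17:84183931-84187947) had 13171, 12479, 15827 and 18968 normalized counts in WT HSCs, KO HSCs, WT CD41low/CD9low HSCs and KO CD41low/CD9low HSCs. It was the only gene of the 9 with both CD41low/CD9low libraries above both HSC libraries. The KO/WT ratio was 0.956 (0.938 to 0.974) in HSCs against 1.19 (1.16 to 1.23) in CD41low/CD9low HSCs, small differences on opposite sides of 1 whose intervals are narrow because the counts are high, and which leave out any spread between replicates. The placental relative Zfp36l3 had at most 1 count in a library.

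Per length of exon, the make-up of the Zfp36 family differed more between populations than its sum. The 3 genes summed to 219.8 CPM per kilobase in WT HSCs, 163.3 in KO HSCs, 183.0 in WT CD41low/CD9low HSCs and 215.3 in KO CD41low/CD9low HSCs. Zfp36l2 made up 62.3% of that sum in WT HSCs, 79.1% in KO HSCs, 94.1% in WT CD41low/CD9low HSCs and 95.3% in KO CD41low/CD9low HSCs. Zfp36 made up 33.6%, 13.5%, 3.32% and 2.21% in the same order. In KO CD41low/CD9low HSCs it was below Zfp36l1 at 2.49%, although its normalized count was the higher (433 against 421). The exon length used for Zfp36, 3470 bases over all its transcripts, equals its whole gene span, although it has 2 exons. Its level per length may therefore be too low, and the shares and their order in this family depend on that length. In the Btg pair, Btg2 held 76.6% of the sum per length in WT HSCs and 65.2% in KO HSCs, but in CD41low/CD9low HSCs 30.4% in the WT and 16.1% in the KO, where Btg1 was the larger component. Ier2 held the largest part of the Ier sum in every library, between 57.1% and 70.8%.

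**Figure D3:**
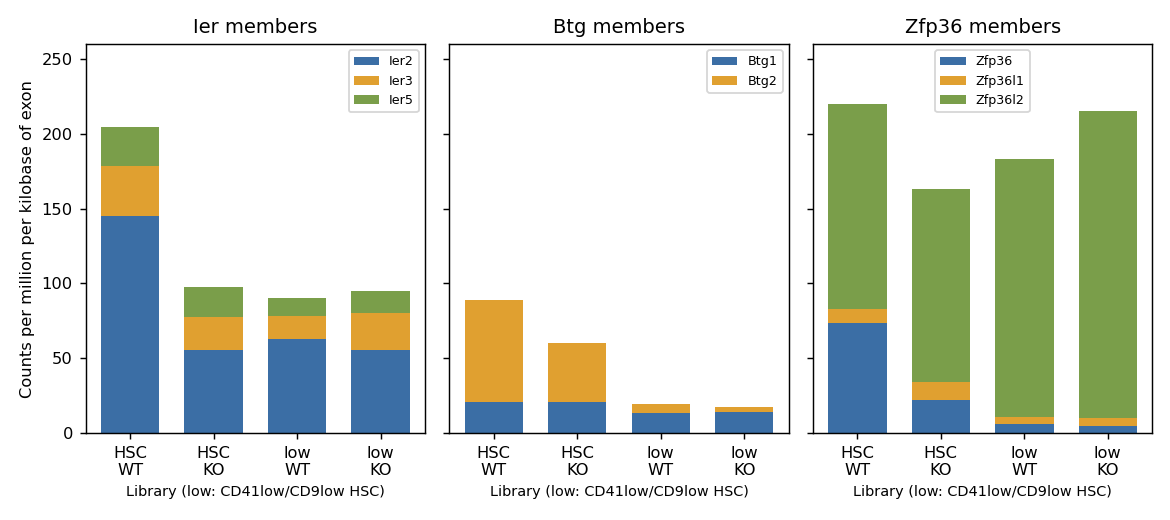
Stacked bars of CPM per kilobase of exon for the Ier, Btg and Zfp36 members in the 4 libraries (low, CD41low/CD9low HSCs). The Ier sum is 204.5 in WT HSCs and between 90.6 and 97.4 elsewhere, and the Btg sum is 88.7 and 60.6 in WT and KO HSCs and under 20 in CD41low/CD9low HSCs. Zfp36l2 fills most of the Zfp36 bar in each library with the exon lengths used, and that of Zfp36 equals its whole gene span.

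Trib1 (chr15:59648350-59657099) was the least abundant of the 9 per length, at 2.34 CPM per kilobase in WT HSCs. Its normalized count was 398 in WT HSCs, 190 in KO HSCs, 147 in WT CD41low/CD9low HSCs and 125 in KO CD41low/CD9low HSCs. The KO/WT ratio was 0.481 (0.418 to 0.551) in HSCs against 0.843 (0.612 to 1.16) in CD41low/CD9low HSCs, the latter from 72 and 91 counts and not distinguishable from 1 at this depth. Trib2 had a KO/WT ratio of 0.801 (0.704 to 0.910) in HSCs, compared with 0.685 (0.567 to 0.827) in CD41low/CD9low HSCs. Trib3, a stress-induced relative, was below 0.6 in both, at 0.278 (0.223 to 0.345) and 0.508 (0.439 to 0.587).

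Of 6 partners and targets of Trib1 that were matched (Cop1, Map2k1, Cebpa, Cebpb, Akt1 and Foxo1), 1 was below 0.6 and 0 above 1.5 in HSCs, and 2 below and 0 above in CD41low/CD9low HSCs. All genes kept had 10.3% below and 14.1% above in HSCs, and 12.0% and 13.5% in CD41low/CD9low HSCs. Cebpb was at 0.327 (0.269 to 0.396) in HSCs, with 0.512 (0.449 to 0.584) in CD41low/CD9low HSCs, and Cebpa, the myeloid factor that Trib1 targets for degradation, at 1.37 and 0.503. The neutrophil and myeloid progenitor markers were below 0.6 in 10 of 10 in the latter comparison, with a median log2 ratio of -2.28, and their part in the Cebpa and Cebpb values was not tested.

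The other early-response genes were set beside the 9. Of 44 symbols, 43 were matched, and in HSCs 32 of 43 were below 0.6 and 1 above 1.5 (Sgk1), where all genes had 10.3% and 14.1%, with a median log2 ratio of -1.06. Fosl1 was at 0.0809 (0.0214 to 0.218, from 61 and 4 counts), Ptgs2 at 0.105 (0.0738 to 0.145) and Atf3 at 0.113 (0.0893 to 0.141). In CD41low/CD9low HSCs 3 of the 39 kept were below 0.6 and 5 above 1.5, where all genes had 12.0% and 13.5%, with a median of 0.01 (all genes 0.0079). Nr4a2 was at 2.96 (1.70 to 5.45, from 16 and 71 counts), Sgk1 at 2.82 (2.18 to 3.70) and Nr4a1 at 0.355 (0.253 to 0.494) there. The medians of the 9 genes were -0.60 and 0.08. The larger list was also written with earlier results of these data known, and its median near 0 in CD41low/CD9low HSCs changes sign with the correction for exon length.

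**Figure D4:**
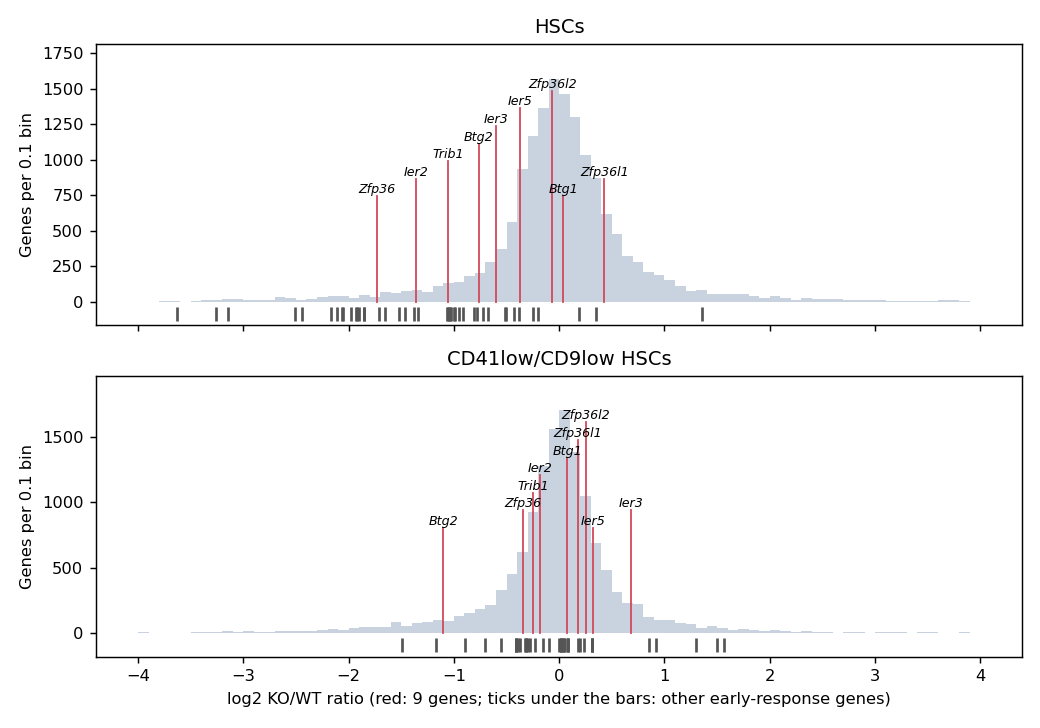
Histograms of log2 KO/WT over all genes kept (bins of 0.1) in HSCs and CD41low/CD9low HSCs, with the 9 genes as red lines and the other early-response genes as ticks under the bars (genes without counts in 1 library are not drawn). In HSCs the red lines run from Zfp36 at -1.73 to Zfp36l1 at 0.43 with most ticks left of 0, and in CD41low/CD9low HSCs they run from Btg2 at -1.10 to Ier3 at 0.68.

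Messages known from the literature as bound by Zfp36 proteins were then listed by their KO/WT ratio. Of 25, 20 were kept in HSCs, with 10 below 0.6 (all genes 10.3%), 1 above 1.5 (all genes 14.1%) and a median log2 ratio of -0.76. Fos was at 0.240 (0.235 to 0.244) and Il6 at 5.08 (3.28 to 8.13, from 26 and 107 counts), and Ptgs2, given above, was the lowest with at least 50 counts. In CD41low/CD9low HSCs 17 were kept, with 6 below (all genes 12.0%), 3 above (all genes 13.5%) and a median of -0.31. Vegfa was at 0.506 (0.443 to 0.577) and Ccnd1 at 0.572 (0.526 to 0.622), and Ier3 itself was among the 3 above. Of the genes below 0.6 there, only Vegfa and Ccnd1 had at least 50 counts in 1 library of the pair. The others below rest on few counts, with ratios down to 0. This list shares Fos, Ptgs2, Dusp1, Nfkbiz, Mcl1 and Myc with the list of early-response genes, so the lists are not separate observations. Over the 532 other coding genes with at least 3 copies of TATTTAT in the 3′ UTR, the median log2 KO/WT ratio in HSCs was 0.20, and 8.83% were below 0.6. These genes were not matched for exon length, with which the ratio moved in HSCs (below). Of coding genes with a 3′ UTR under 2000 bases, 1.31% had at least 3 copies, against 4.01% of all with a 3′ UTR. The part of length in the median of 0.20 was not tested.

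The KO/WT ratios were next set against each other across populations. Divided by the ratio in HSCs, the ratio in CD41low/CD9low HSCs was 2.60 (2.19 to 3.09) for Zfp36, 2.43 (2.03 to 2.90) for Ier3, 2.27 (2.09 to 2.47) for Ier2, 1.75 (1.23 to 2.49) for Trib1, 1.62 (1.43 to 1.82) for Ier5 and 1.25 (1.21 to 1.29) for Zfp36l2. For these 6 genes the KO was thus relatively higher in CD41low/CD9low HSCs, beyond counting error. Btg2 went the other way at 0.790 (0.633 to 0.984), and the intervals of Btg1 (1.03, 0.937 to 1.13) and Zfp36l1 (0.839, 0.686 to 1.03) held 1. No test of these differences is possible with 1 library per group.

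Between populations of the WT, 7 of 9 genes were below 0.6 in CD41low/CD9low HSCs relative to HSCs and 0 of 9 were above 1.5, against 19.7% and 19.2% of all 15636 genes kept. Zfp36 was at 0.0786 (0.0694 to 0.0887) and Btg2 at 0.0842 (0.0731 to 0.0966), or 12.7-fold and 11.9-fold lower. The other 5 below 0.6 lay between 0.370 (Trib1) and 0.499 (Zfp36l1), Btg1 was at 0.631 (0.588 to 0.677) and Zfp36l2 at 1.20 (1.17 to 1.23). Between populations of the KO, 3 of 9 were below 0.6 and 1 of 9 above 1.5, against 20.4% and 19.2% of all 15419 genes kept. Btg2 was again at the bottom with 0.0675 (0.0568 to 0.0796), followed by Zfp36 at 0.207 (0.184 to 0.233) and Zfp36l1 at 0.424 (0.374 to 0.480), and Zfp36l2 was at 1.52 (1.49 to 1.55), a value that TMM factors move to 1.48 and so below the cutoff. Ier2 (0.960, 0.905 to 1.02) and Ier3 (1.07, 0.963 to 1.19) had intervals that hold 1 between KO populations, but the correction for exon length gave 0.831 for Ier2 and 0.922 for Ier3, outside those intervals and, for Ier3, on the other side of 1. In the WT they were at 0.417 and 0.436.

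The populations differ in sort gate, in annotation release and in their library pair, and the gate cannot be told apart from the other differences. In the WT, 11 of 12 megakaryocyte markers were below 0.6 in CD41low/CD9low HSCs relative to HSCs (all genes 19.7%). There 6 of 10 neutrophil and myeloid progenitor markers were above 1.5 (all genes 19.2%). Whether these contribute to the levels of Zfp36 and Btg2 was not tested. Over the 4 libraries, the ratio of the highest to the lowest normalized count was smallest for Zfp36l2 and largest for Btg2, followed by Zfp36.

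The 9 genes shared a compact structure, which the choice did not use. They have 1 to 3 exons, as did 14.2% of 13465 coding genes kept in HSCs, whose median was 9 exons, and they span 1240 to 8750 bases (median of coding genes 24094). Summed exon length ran from 1131 bases for Ier3 to 6248 for Trib1 (median 4424). Among the 1899 other coding genes with 1 to 3 exons, 14.3% had a KO/WT ratio below 0.6 in HSCs, and among 11557 coding genes with more exons 7.75% did. In CD41low/CD9low HSCs the shares were 14.4% and 8.94%.

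In HSCs the KO/WT ratio moved with exon length across genes, so each member was read beside the 500 genes nearest in length. The median log2 ratio of those neighbours was -0.19 for Ier2 and Ier3, -0.13 for Btg2, -0.09 for Ier5 and Zfp36l1, -0.06 for Zfp36, -0.03 for Zfp36l2, 0.02 for Btg1 and 0.09 for Trib1. The members' own log2 ratios of -1.73 (Zfp36), -1.36 (Ier2) and -1.06 (Trib1) were far below these medians, while that of Btg2 was -0.76 and that of Ier3 -0.60. The share of reads outside annotated features also differed between the libraries of the HSC pair (above), and its part in these ratios was not tested.

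**Figure D5:**
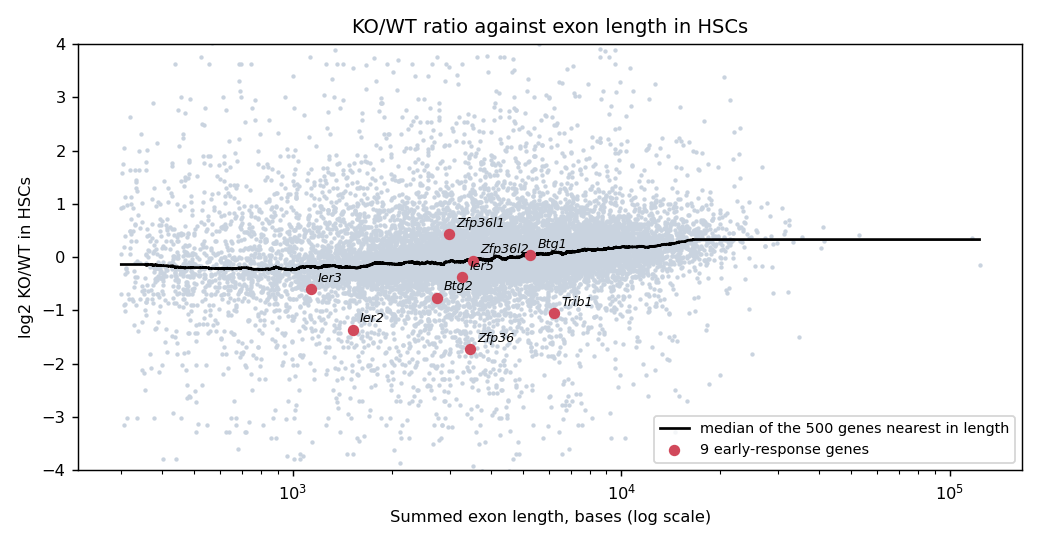
The log2 KO/WT ratio in HSCs against summed exon length (log scale) for genes of 300 bases or more, with the median of the 500 genes nearest in length as a black line and the 9 genes in red. Zfp36, Ier2 and Trib1 lie more than 1 below the line, Btg2 and Ier3 lie less far below it, and Zfp36l1 lies above it at 0.43.

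Neighbours and copies were checked because of the counting. The strand setting of the counting is not given. Zfp36l1 shares 1672 exon bases with the lincRNA Gm26669 on the opposite strand, which had between 1 and 5 counts per library. Zfp36 and Zfp36l2 overlap the antisense genes Gm44710 and AC132455.1 by 125 and 105 exon bases, so that without strand a small part of their reads could not be told apart. The pseudogene copies Btg1-ps1 and Zfp36l1-ps had 0 and at most 1 count.

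The mean profile of the 9 genes over the 4 libraries, as centred log2 levels, was 0.92 in WT HSCs, 0.30 in KO HSCs, -0.60 in WT CD41low/CD9low HSCs and -0.63 in KO CD41low/CD9low HSCs. The search covered 10799 protein-coding genes outside the 9 with a mean of at least 100 normalized counts. Nearest to this profile by root mean square distance were Uchl3 (0.0542), Tra2b (0.0781), Ccnl1 (0.0818), Tex30 (0.0827), Shcbp1 (0.0912), Cenpe (0.0994), Fancb and Tbxa2r (0.104 each). The median distance over the 10799 genes was 0.672. The members themselves were farther from their own mean, from 0.203 for Trib1 to 1.30 for Btg2, and so do not follow a single profile.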

How the data were processed

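RNA of sorted HSCs and CD41low/CD9low HSCs was sequenced from TruSeq Stranded mRNA libraries. The authors used TopHat 2.0.10 (genome mm10, GRCm38) and Samtools, then HTSeq on Ensembl genes, and deposited whole-number counts per gene that are not normalized. The HTSeq version, strand setting and annotation release are not given in the sources used here. For HSCs 38293 genes are listed and for CD41low/CD9low HSCs 41214 genes, of which 37140 are shared. Rows that name no gene were left out, and the largest of these was reads in no feature (60.1 to 105.3 per 100 gene counts).

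The members and all gene lists were chosen with earlier results of these data known. Normalization used median-of-ratios size factors, of the pair for KO/WT (as in DESeq, which the authors used) and of all 4 libraries for levels and for comparisons between populations. Genes with at least 10 counts in 1 library of a comparison were kept, and ratios above 1.5 or below 0.6 were counted. Each ratio has the exact Clopper-Pearson 95% interval of the share of counts. PCR duplicates are not removed from it, so intervals and floors cover counting error only. The floor of 3 counts equals 0.059 CPM in WT HSCs, 0.072 in KO HSCs, 0.236 in WT CD41low/CD9low HSCs and 0.157 in KO CD41low/CD9low HSCs. With 1 library per group no p-value was computed. The size factors, ratios and intervals were tested on simulated data.

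Exon lengths, positions and 3′ UTRs come from GENCODE M21 (GRCm38), and promoters from RefSeq (GRCm38.p6). Exon length is the number of bases in any exon of any transcript of the gene. The 3′ UTR is the longest among the gene's coding transcripts. Named genes are the 9 members, every other detected gene of their families, the up to 3 genes of each list and KO/WT comparison with the largest absolute log2 ratio past a cutoff and at least 50 counts in 1 library, and the 8 coding genes nearest to the mean profile (pseudocount 1). Genes outside this rule, named as examples of a list or marker set, were chosen after their values were seen. Alternatives were TMM factors (edgeR 4.0.16 in R 4.3.3), total counts, size factors of all 4 libraries, at least 50 counts, no filter, a pseudocount of 1, a lower cutoff of 1/1.5 and a correction for exon length over 500 genes. Python 3.11.15 with numpy 2.4.6, scipy 1.17.1, pandas 2.3.3 and matplotlib 3.10.9 was used. Megakaryocyte libraries were not analysed here.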

Additional observations from a re-analysis of the deposited data

Results flagged for a closer look

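The KO/WT ratio of 3 of the 9 genes lay on opposite sides of 1 in the populations, each beyond its counting interval, and the difference was not tested because each group has 1 library. For Ier3 the ratio in CD41low/CD9low HSCs was 2.43 times that in HSCs. For Ier5 this quotient was 1.62, and for Zfp36l2 it was 1.25.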

How the results depend on the processing

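No paired analysis was possible because each group has 1 library, and for the same reason no library could be left out. Of the summary values under the alternatives, 120 kept their direction and stayed near the reported value (counts within 1.5 times, medians within the medians of the genes' counting bounds), 5 moved and 1 reversed, and of the ratios of single members 223 stayed within their counting interval and 11 moved. A correction for exon length took the median log2 KO/WT ratio of the 9 genes in HSCs from -0.60 to -0.41, took the Btg2 ratio there to 0.643 and so the count below 0.6 from 4 to 3, and turned the median of the other early-response genes in CD41low/CD9low HSCs from 0.01 to -0.006176. With at least 50 counts, 1 of those genes was below 0.6 there in place of 3 (all genes 5.83% in place of 12.0%). Between KO populations, TMM factors and the exon length correction each left 0 of 9 genes above 1.5 in place of 1, and a lower cutoff of 1/1.5 counted 5 of 9 as lower in place of 3 (all genes 24.96% in place of 20.4%). That cutoff counted 5 of 9 in place of 4 in HSCs (all genes 12.7% in place of 10.3%). Between WT populations it counted 8 of 9 in place of 7 (all genes 23.7% in place of 19.7%). In HSCs the Zfp36 ratio ranged from 0.298 to 0.314, that of Ier2 from 0.384 to 0.445 and that of Trib1 from 0.451 to 0.482 over all alternatives. The correction for exon length removes a trend across genes by its construction, and the cause of the trend was not tested. Depth limits Trib1, Zfp36l1 and Btg2 most, which had 72, 181 and 209 counts in the WT CD41low/CD9low library.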

Other observations

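The genes of proteins that act with Btg and Zfp36 family members were measured in the same libraries. Among all genes kept, 10.3% were below 0.6 and 14.1% above 1.5 in HSCs, and 12.0% and 13.5% in CD41low/CD9low HSCs. Of 14 CCR4-NOT genes, 0 were below 0.6 and 1 above 1.5 in HSCs, where Cnot6l, a deadenylase subunit, had a KO/WT ratio of 1.69 (95% counting interval 1.65 to 1.73). The log2 ratio of Cnot6l was 0.75, and the 500 genes nearest in exon length had a median of 0.19. Taking that median off brings Cnot6l below 1.5. The median log2 ratio of the 14 genes in HSCs was 0.15, or 0.02 with the correction for exon length. In CD41low/CD9low HSCs 0 of the CCR4-NOT genes were below and 1 above, Cnot7, the deadenylase that Btg proteins bind, at 1.51 (1.38 to 1.65). Its interval crosses the cutoff of 1.5. Of 18 genes for decapping and other binding proteins of AU-rich elements, 1 was below and 1 above in HSCs, Zc3h12a, an RNase of inflammatory messages, at 0.524 (0.475 to 0.578) and Pabpc1, the cytoplasmic poly(A)-binding protein, at 1.66 (1.63 to 1.69), while in CD41low/CD9low HSCs 0 passed either cutoff.

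Of 16 serum response and cAMP response factors, which drive many early-response genes, 0 were below 0.6 and 1 above 1.5 in HSCs, Crem at 1.58 (1.34 to 1.86), with a list median log2 ratio of 0.07. In CD41low/CD9low HSCs 1 was below and 0 above, with a median of 0.09. The shares of all genes below and above were 10.3% and 14.1% in HSCs, and 12.0% and 13.5% in CD41low/CD9low HSCs.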
